A study of Mus musculus with 15 samples.

Results

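The genes described here are 10 mouse genes that carry glucose into the cell, split it to pyruvate and export lactate. They are the glucose transporter gene Slc2a1, the enzyme genes Hk1, Hk2, Gpi1, Tpi1, Pgk1, Pgam1, Pkm and Ldha, and the lactate exporter gene Slc16a3. They were taken by name from the pathway, with earlier results of these data known. Of the 10 listed genes, 9 had an array transcript cluster that names no other gene, out of 22180 genes in all with such a cluster. Gpi1, which encodes glucose-6-phosphate isomerase, had no cluster of its own in the platform annotation used here and has no value. A transcript cluster is the set of array probes that report on 1 gene or transcript. A gene with several clusters was represented by the one with the strongest average signal.

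RNA was measured in 15 lung nodules that were cut from fixed, paraffin-embedded sections by laser microdissection, with 1 array per nodule. The nodules grew in female BALB/c mice after inoculation of D2.A1 or D2.OR cells through the lateral tail vein, and the methods give an age of 4 to 5 weeks for tail-vein inoculation. Both lines descend from one mammary hyperplasia of BALB/c mice, and the study uses D2.A1 as its metastatic and D2.OR as its dormant line. Before inoculation the cells were kept on a basement membrane extract for 3 to 5 days (primed, 3D) or on plastic (unprimed, 2D). D2.A1 3D cells gave 2 spindle and 2 epithelial nodules and D2.A1 2D cells 3 of each kind. There were 3 nodules of D2.OR 3D cells and 2 of D2.OR 2D cells. All 5 D2.OR nodules carry the histology label spindle. Every host is a mouse with its own lung, vessels and immune cells, and each line is a single line. The labels do not tie nodules to mice, and the legends give fewer mice for D2.A1 2D and for D2.A1 3D than there were nodules. Some D2.A1 nodules of each culture therefore shared a mouse, and p-values that count such nodules as separate mice are too small. How the D2.OR nodules fall to mice is not given, and all p-values below measure the spread between nodules.

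Glycolysis converts glucose to pyruvate in the cytosol. Hexokinases trap glucose as a phosphate, later enzymes split the sugar and recover ATP, and lactate dehydrogenase turns pyruvate into lactate, which leaves the cell with a proton. Many tumors run this route at a high rate even with oxygen present. Several of its genes are known targets of the hypoxia-inducible factors and of Myc. In the lung, fat, muscle and immune cells near a tumor use the same enzymes, so these genes mark no cell type.

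The deposited values are log2 signals after Robust Multi-array Average (RMA), a method that sets all arrays to one distribution. The array medians lay between 1.81 and 1.91, and the median gene had a mean of 1.94. Hk2, Ldha and Slc16a3 lay little above that level, where differences between weak signals are compressed. The correlation between arrays ran between 0.855 and 0.969, and no pair of arrays held identical values. The mean of the alveolar type II markers and that of the epithelial tumor markers both lay above the median gene on every array. Single epithelial tumor markers did not: Epcam had means of 1.80 in D2.A1 and 1.78 in D2.OR nodules, and Krt14 1.83 in D2.A1 nodules. Whether this list marks tumor apart from lung epithelium was not tested. The mean of the 8 alveolar type II markers was 2.69 to 4.31 in D2.A1 nodules and 2.45 to 5.71 in D2.OR nodules, and the mean of 5 epithelial tumor markers was 2.61 to 3.96 in D2.A1 nodules and 2.54 to 4.07 in D2.OR nodules. In bulk RNA of this kind, fewer cells of a type and less RNA per cell cannot be told apart.

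The first question was whether the genes differ between nodules of the metastatic line and nodules of the dormant line. In D2.A1 nodules 4 of the 9 measured genes rose, all of them enzymes that act after the sugar has been split, and none fell. Pgk1 was 3.46-fold higher, Tpi1 2.49-fold, Pkm 2.17-fold and Pgam1 1.79-fold. Of all genes, 1.52% rose and 3.67% fell in this comparison, and 5.19% were called in either direction. The median difference of the 9 genes was 0.84 on the log2 scale, against 0.02 over all genes. Differences are D2.A1 minus D2.OR, as the mean of the 4 D2.A1 group means minus the mean of the 2 D2.OR group means. They were tested with limma, two-sided, and a gene was called at an adjusted p under 0.05 over all genes.

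At the entry of the route, Slc2a1 encodes GLUT1, the basal glucose transporter of many cells. Its log2 signal had a lowest value of 3.12, a median of 3.99 and a highest value of 5.43 in D2.A1 nodules, against 3.14 and 3.72 in D2.OR 2D and 3.36, 2.99 and 3.15 in D2.OR 3D nodules. The highest values were in D2.A1 nodules, and the lines overlapped. The difference was 0.84 (SE 0.25, adjusted p = 0.079), short of the threshold. It passed in 4 alternatives, with genes above the median signal (adjusted p = 0.047), with cyclic loess scaling (adjusted p = 0.041), with the mean of its clusters (0.53, adjusted p = 0.048) and without D2.A1 2D spindle nodule 3 (0.93, adjusted p = 0.037).

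The hexokinase genes, whose products phosphorylate glucose, were not called. Hk1, the housekeeping hexokinase, lay between 2.97 and 3.56 in D2.A1 nodules, with a median of 3.38, and between 2.72 and 3.69 in D2.OR nodules, with a median of 3.32. The difference was 0.05, with a 95% interval of -0.26 to 0.37. Hk2, the inducible form that is often high in tumors, lay between 2.18 and 2.92 in D2.A1 nodules and between 2.09 and 3.38 in D2.OR nodules, and the difference was -0.13 with an interval of -0.54 to 0.29. For both genes the D2.OR nodules spread beyond the D2.A1 nodules on either side.

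Tpi1 encodes triosephosphate isomerase, which interconverts the products of the split sugar. Its signal had a lowest value of 5.34, a median of 6.15 and a highest value of 6.92 in D2.A1 nodules. In D2.OR nodules it was 5.58 and 4.10 for 2D and 5.71, 3.65 and 5.09 for 3D. D2.OR 2D nodule 3 and D2.OR 3D nodule 2 lay far below the others, and of the remaining D2.OR nodules 2D nodule 2 and 3D nodule 1 lay within the D2.A1 range. Tpi1 rose by 1.32 (SE 0.32, adjusted p = 0.035).

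Pgk1 encodes phosphoglycerate kinase, the first step that recovers ATP. Its signal had a lowest value of 6.03, a median of 6.82 and a highest value of 7.66 in the 10 D2.A1 nodules. In D2.OR nodules it was 5.53 and 4.56 for 2D and 5.73, 4.24 and 5.11 for 3D. The lines did not overlap: each of the 10 D2.A1 nodules lay above each of the 5 D2.OR nodules. Pgk1 rose by 1.79 (SE 0.25, adjusted p = 0.0014), and it was the 1 gene of the 9 whose nodules did not overlap, against 0.523% of all genes with every D2.A1 nodule above every D2.OR nodule.

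Pgam1 encodes phosphoglycerate mutase, the next step. Its signal had a lowest value of 4.39, a median of 5.37 and a highest value of 6.35 in D2.A1 nodules, against 4.84 and 4.03 in D2.OR 2D and 4.63, 4.65 and 4.71 in D2.OR 3D nodules. Of the D2.A1 nodules, 2D epithelial nodule 3 alone reached the D2.OR range. Pgam1 rose by 0.84 (SE 0.21, adjusted p = 0.038).

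Pkm encodes the muscle-type pyruvate kinase, which makes pyruvate and a further ATP, and whose M2 splice form is common in tumors. The array value does not separate its splice forms. The signal had a lowest value of 7.98, a median of 8.44 and a highest value of 9.06 in D2.A1 nodules, against 8.04 and 6.68 in D2.OR 2D and 8.21, 6.36 and 7.77 in D2.OR 3D nodules. The same pair of D2.OR nodules as for Tpi1 was lowest, and D2.OR 2D nodule 2 and D2.OR 3D nodule 1 lay within the D2.A1 range. Pkm rose by 1.12 (SE 0.28, adjusted p = 0.040).

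At the lactate end, Ldha encodes the lactate dehydrogenase subunit that favours lactate formation. It lay between 1.74 and 2.94 in D2.A1 nodules, with a median of 2.36, and between 1.83 and 2.52 in D2.OR nodules, with a median of 2.10. The difference was 0.27 with an interval of -0.09 to 0.63, and the lines overlapped over most of their range. Slc16a3, which encodes the proton-coupled lactate exporter MCT4, lay between 1.80 and 2.13 in D2.A1 nodules and between 1.98 and 2.73 in D2.OR nodules. Its difference was -0.18 with an interval of -0.38 to 0.02. Neither gene was called.

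**Figure D1:**
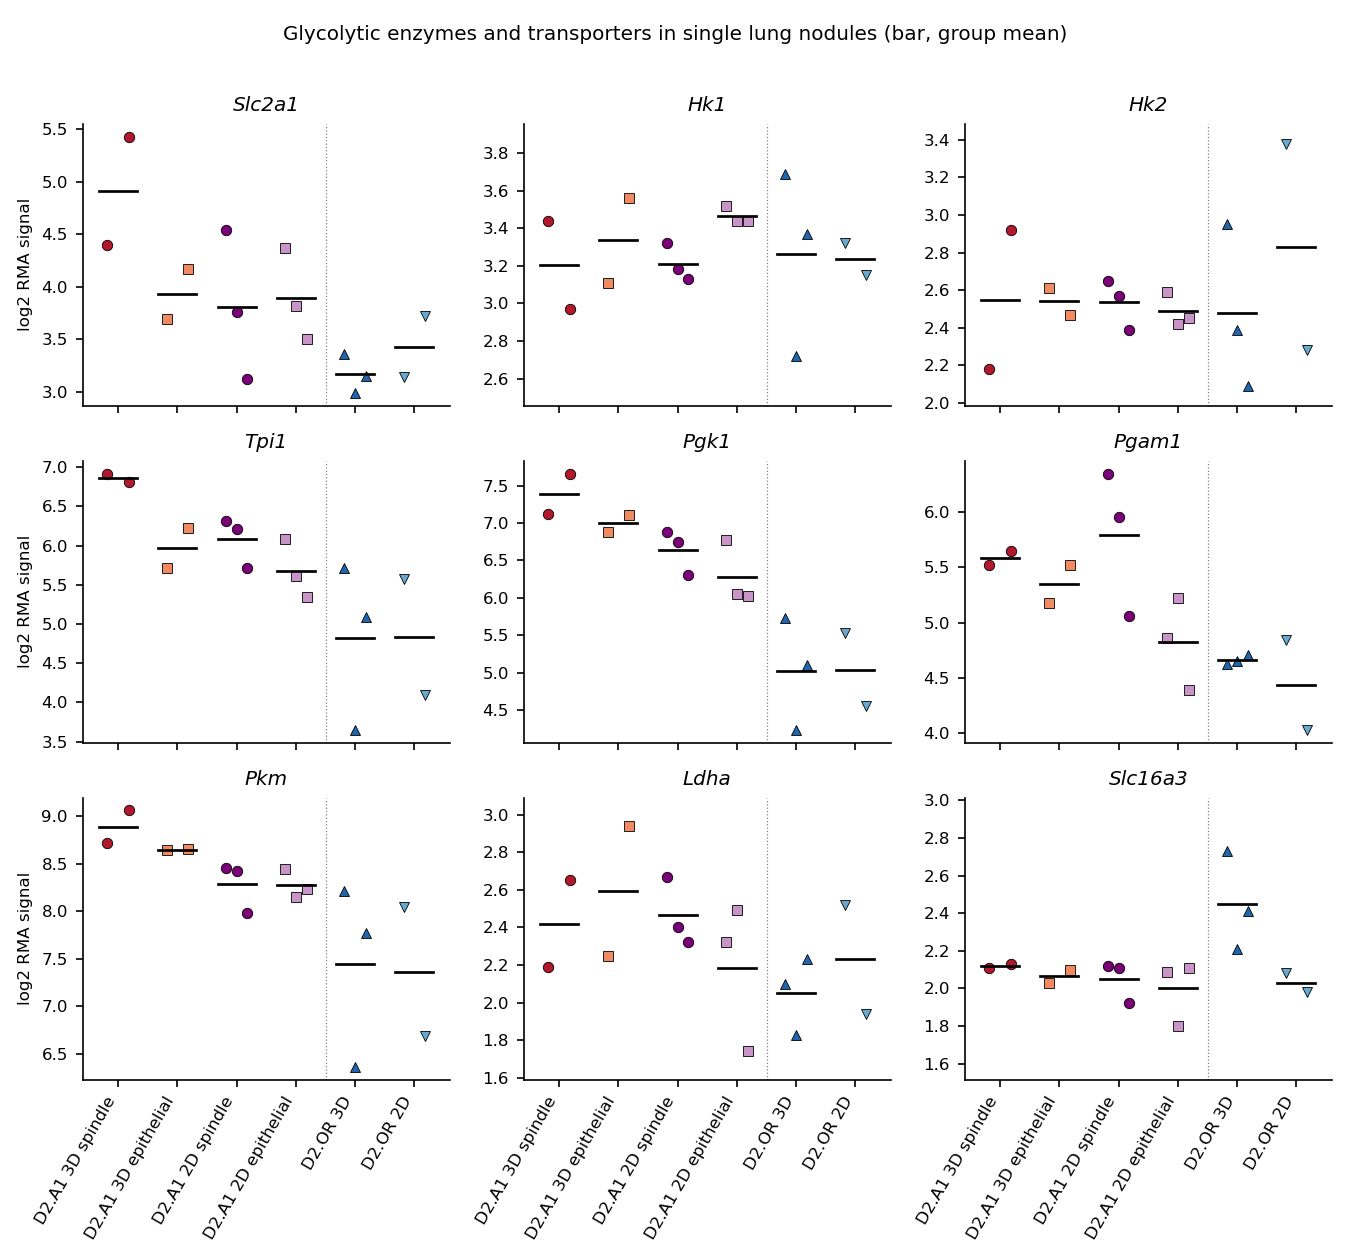
Log2 RMA signal of the 9 measured genes (vertical axis, scaled per gene) in each of the 15 nodules, by the 6 title groups. Points are nodules, bars are group means, and the dotted line parts D2.A1 from D2.OR. Pgk1 lies between 6.03 and 7.66 in D2.A1 nodules and between 4.24 and 5.73 in D2.OR nodules, while Hk1 and Hk2 overlap between the lines.

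The calls other than Pgk1 stood close to the threshold. Pgk1 kept its call in 25 of 25 alternative analyses, Tpi1 and Pkm in 12 of 25 each and Pgam1 in 10 of 25. Pgk1 was the 1 gene still called without D2.A1 2D spindle nodule 2, D2.A1 2D epithelial nodule 1 or 2, any of the 4 D2.A1 3D nodules, or nodule 3 of D2.OR 3D or D2.OR 2D, and without D2.A1 2D spindle nodule 1 it was called beside Pgam1. In addition Pkm lost its call without D2.A1 2D epithelial nodule 3, and Pgam1 lost its call when D2.OR 3D nodule 1 was left out. With D2.OR 2D nodule 3 left out, the differences were 0.95 for Tpi1 (adjusted p = 0.17), 0.78 for Pkm (adjusted p = 0.20) and 0.64 for Pgam1 (adjusted p = 0.18).

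The promoters of the 4 genes that rose, and of Ldha, which was not called, are shown to set their sequence beside these values. RefSeq promoter windows of 250 bases before and 50 after a start site (GRCm38.p6) were matched by symbol for 10 of 10 genes, in 13 windows. They were searched on both strands for ACGTG, the core of the hypoxia response element, and for CACGTG, the E-box that Myc and other factors bind. Each CACGTG also holds ACGTG on both strands. In the sequences, capitals mark ACGTG or its reverse complement CACGT.
Tpi1, chr6:124814109-124814408, minus strand: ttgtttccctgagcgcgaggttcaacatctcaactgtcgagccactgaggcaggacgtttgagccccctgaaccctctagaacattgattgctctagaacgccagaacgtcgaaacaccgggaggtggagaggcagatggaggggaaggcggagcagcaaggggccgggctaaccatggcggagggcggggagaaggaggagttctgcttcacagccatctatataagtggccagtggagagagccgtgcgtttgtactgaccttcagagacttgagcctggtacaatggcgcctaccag
Pgk1, chrX:106186850-106187149, plus strand: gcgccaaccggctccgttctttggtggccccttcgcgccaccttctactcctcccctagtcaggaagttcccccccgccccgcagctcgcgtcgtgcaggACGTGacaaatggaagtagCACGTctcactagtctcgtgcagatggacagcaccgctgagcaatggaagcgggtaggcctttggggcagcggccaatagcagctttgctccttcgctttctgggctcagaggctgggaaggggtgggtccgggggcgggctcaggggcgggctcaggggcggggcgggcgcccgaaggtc
Pgam1, chr19:41911621-41911920, plus strand: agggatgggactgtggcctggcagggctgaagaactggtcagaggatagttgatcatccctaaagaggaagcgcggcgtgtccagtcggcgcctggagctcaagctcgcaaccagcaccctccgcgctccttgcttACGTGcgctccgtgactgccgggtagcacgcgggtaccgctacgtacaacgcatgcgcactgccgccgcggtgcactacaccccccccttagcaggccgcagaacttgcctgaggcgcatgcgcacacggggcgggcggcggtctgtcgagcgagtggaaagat
Pkm (downstream start), chr9:59656977-59657276, plus strand: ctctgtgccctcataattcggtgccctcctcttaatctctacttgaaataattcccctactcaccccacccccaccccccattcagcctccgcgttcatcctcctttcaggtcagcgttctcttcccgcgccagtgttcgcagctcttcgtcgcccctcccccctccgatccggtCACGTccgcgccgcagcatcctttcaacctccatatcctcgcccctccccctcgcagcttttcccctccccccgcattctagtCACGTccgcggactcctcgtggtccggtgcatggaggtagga
Ldha (upstream start), chr7:46845554-46845853, plus strand: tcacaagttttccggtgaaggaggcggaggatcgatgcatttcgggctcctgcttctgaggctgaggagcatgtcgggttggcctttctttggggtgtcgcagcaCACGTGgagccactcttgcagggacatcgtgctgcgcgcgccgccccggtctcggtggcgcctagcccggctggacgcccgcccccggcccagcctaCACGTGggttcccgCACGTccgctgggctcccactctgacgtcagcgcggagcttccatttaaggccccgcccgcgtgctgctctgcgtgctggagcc

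The Pgk1 window held 2 matches to ACGTG, the Pgam1 window 1 and the downstream Pkm window 2, while the Tpi1 window and the upstream Pkm window held none. The upstream Ldha window held 5 matches, 4 of which came from its 2 CACGTG, at 3 places in all. Ldha was not called, and its signal lay little above the median gene, where differences are compressed. Slc2a1 had 1 match, and Hk2, Slc16a3 and the second Hk1 window had 2 each. Gpi1, the first Hk1 window and the second Ldha window had none. In all, 8 of the 13 windows held ACGTG, against 19.6% of 32851 promoter windows of this length in the table. Of the 13, the upstream Ldha window alone held CACGTG, against 7.15% of all windows. Several genes of this pathway are known targets of factors that bind these strings, so the shares are a description and not a test. GC content was 51.3% to 73.3% in the 13 windows, against a median of 52.7% over all windows. A match is a string of letters and not a bound site.

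The same line difference was then taken within each culture. Among 2D nodules 1 of 9 genes was called, Pgk1, which rose by 1.41 (SE 0.36, adjusted p = 0.049), while 0.996% of all genes rose, 3.2% fell and 4.2% were called in either direction. At an unadjusted p under 0.05 there were 4 of 9 genes, against 15.7% of all genes. The Pgk1 values were 6.88, 6.74 and 6.30 in D2.A1 2D spindle nodules and 6.77, 6.05 and 6.03 in D2.A1 2D epithelial nodules, against 5.53 and 4.56 in D2.OR 2D nodules. All 6 D2.A1 nodules lay above both D2.OR nodules, as for 8.91% of all genes. This call rested on 2 D2.OR nodules and was kept in 9 of 26 alternatives: without nodule 3, which leaves 1 D2.OR 2D nodule, the difference was 0.93 (adjusted p = 0.45). Tpi1 (1.04, adjusted p = 0.31), Pkm (0.92, adjusted p = 0.31) and Pgam1 (0.88, adjusted p = 0.15) were not called.

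Among 3D nodules Pgk1 was again the 1 gene of 9 called. It rose by 2.16 (SE 0.34, adjusted p = 0.016), 4.48-fold, while 0.194% of all genes rose, 0.252% fell and 0.446% were called in either direction. At an unadjusted p under 0.05 there were 6 of 9 genes, against 10.2% of all genes. The Pgk1 values were 7.12 and 7.66 in D2.A1 3D spindle nodules and 6.88 and 7.11 in D2.A1 3D epithelial nodules, against 5.73, 4.24 and 5.11 in D2.OR 3D nodules. The call was lost without D2.A1 3D spindle nodule 2, either D2.A1 3D epithelial nodule or D2.OR 3D nodule 3, with adjusted p between 0.051 and 0.080. In 4 of 9 genes every D2.A1 3D nodule lay above every D2.OR 3D nodule, namely Pgk1, Pgam1, Pkm and Slc2a1, against 3.78% of all genes. In 1 gene, Slc16a3, every D2.A1 3D nodule lay below every D2.OR 3D nodule, against 4.68% of all genes.

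Slc2a1 was 4.40 and 5.43 in D2.A1 3D spindle nodules and 3.69 and 4.17 in D2.A1 3D epithelial nodules, against 3.36, 2.99 and 3.15 in D2.OR 3D nodules. The groups did not overlap, and the difference of 1.25 (SE 0.34) had an adjusted p of 0.17. Slc16a3 was 2.11 and 2.13 in D2.A1 3D spindle nodules and 2.03 and 2.10 in D2.A1 3D epithelial nodules, against 2.73, 2.21 and 2.41 in D2.OR 3D nodules. Its D2.A1 values were tightly grouped and all lower, with a difference of -0.36 (SE 0.12, adjusted p = 0.31). Whether the line difference itself differs between 3D and 2D is given by the test of priming below.

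**Figure D2:**
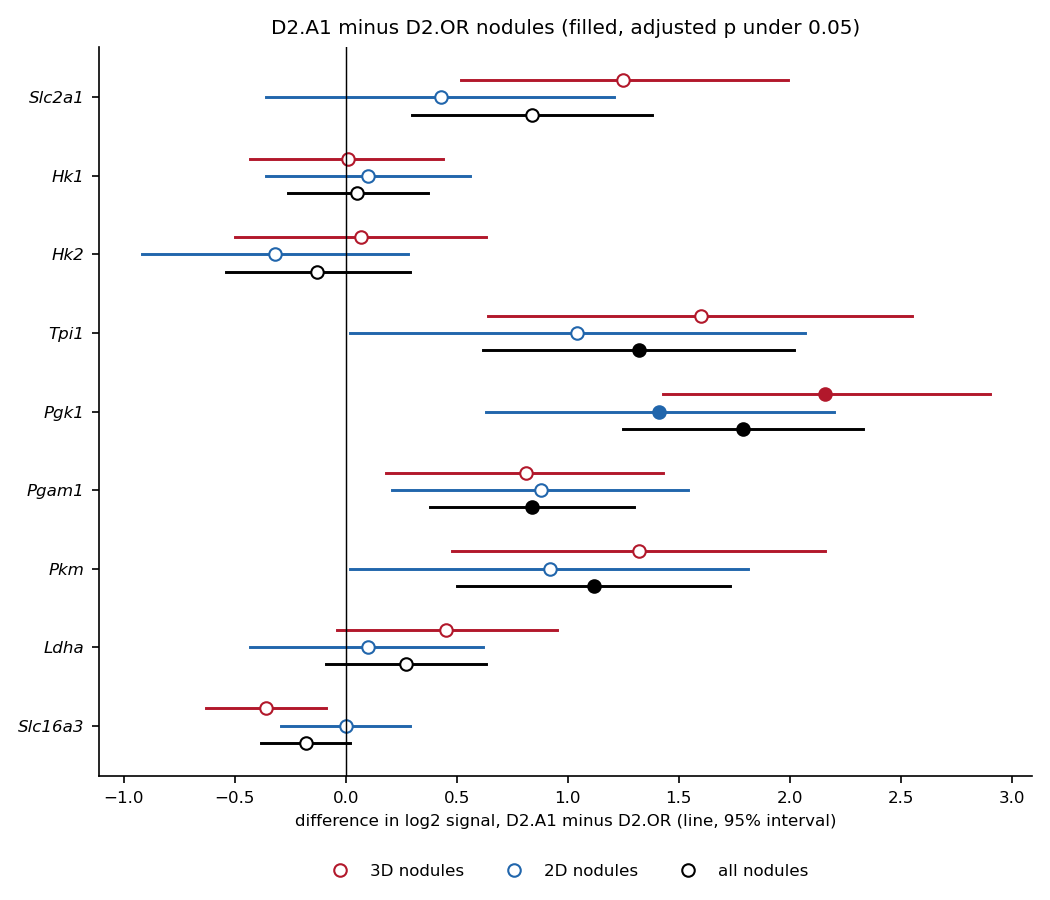
Differences in log2 signal between D2.A1 and D2.OR nodules (horizontal axis) for the 9 measured genes, among 3D nodules, among 2D nodules and over all nodules. Lines are 95% intervals of the limma fit, and filled points have an adjusted p under 0.05. Pgk1 is filled in all 3 comparisons, and the intervals of Hk1 and Hk2 include 0 in each.

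Since D2.OR nodules are all labelled spindle, the spindle nodules of D2.A1 were also set against them. The study places D2.A1 spindle nodules at the pleural surface, and those of primed D2.OR cells there and inside the lung. It describes the nodules of unprimed D2.OR cells as small. Site and nodule size therefore cannot be told apart from line in this comparison. Here 3 of 9 genes rose and none fell: Pgk1 by 1.98 (SE 0.29, adjusted p = 0.0025), Tpi1 by 1.65 (SE 0.37, adjusted p = 0.028) and Pgam1 by 1.14 (SE 0.24, adjusted p = 0.020). Of all genes 1.09% rose, 3.12% fell and 4.21% were called in either direction, and an unadjusted p under 0.05 was found in 5 of the 9 and in 17.9% of all genes. In these 3 genes each of the 5 D2.A1 spindle nodules lay above each of the 5 D2.OR nodules, as in 1.54% of all genes. Pgam1 was 5.52 and 5.65 in D2.A1 3D spindle nodules and 6.35, 5.96 and 5.06 in D2.A1 2D spindle nodules, and its highest D2.OR value was 4.84. Pkm (1.18, adjusted p = 0.066) and Slc2a1 (1.06, adjusted p = 0.060) were not called, and Slc2a1 passed in 7 alternatives, with adjusted p between 0.021 and 0.048. Without D2.OR 2D nodule 3 or without D2.A1 3D spindle nodule 2, Pgk1 was the 1 gene called. Without D2.A1 2D spindle nodule 1 or 2 Tpi1 lost its call, and without D2.A1 3D spindle nodule 1 both Tpi1 and Pgam1 did.

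The next question was whether priming on basement membrane changed these genes within a line. None of the 9 genes was called in D2.OR 3D against D2.OR 2D nodules, where limma called 0.275% of all genes, and 1 gene had an unadjusted p under 0.05, against 9.39% of all genes. That gene was Slc16a3, whose D2.OR 3D values of 2.73, 2.21 and 2.41 stood against D2.OR 2D values of 2.08 and 1.98. The groups did not overlap, as for 10.7% of all genes in this direction, and the difference was 0.42 (SE 0.15, adjusted p = 0.36). Tpi1, Pgk1 and Pkm had differences of -0.02, -0.02 and 0.08. Their intervals were wide, -0.90 to 0.86 for Pgk1 and -1.16 to 1.12 for Tpi1, and 1 nodule of each group was low. Without both D2.OR nodules numbered 2, a fit that leaves 1 D2.OR 2D nodule and lends it the spread of the other groups, Pkm was called at 1.31 (adjusted p = 0.011).

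In D2.A1 nodules none of the 9 genes was called in 3D against 2D either, where limma called 0.00451% of all genes, which is 1 gene, and 1 of the 9 had an unadjusted p under 0.05, against 5.33% of all genes. That gene was Pgk1, which lay between 6.88 and 7.66 in D2.A1 3D nodules and between 6.03 and 6.88 in D2.A1 2D nodules. The groups met at 6.88, and the difference was 0.73 (SE 0.29, adjusted p = 0.89). In Pkm each of the 4 D2.A1 3D nodules, with 8.72 and 9.06 for spindle and 8.64 and 8.65 for epithelial, lay above each of the 6 D2.A1 2D nodules, whose highest value was 8.45. This holds for 0.618% of all genes, and the difference was 0.49 (SE 0.33, adjusted p = 0.99). Of the 9 genes, 8 had a positive difference in D2.A1 and 4 of 9 in D2.OR.

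The priming effect of D2.A1 was compared with that of D2.OR in one fit. None of the 9 genes differed past the threshold, while 0.0947% of all genes did, and none had an unadjusted p under 0.05, against 8.18% of all genes. The largest estimates were 0.82 for Slc2a1 (interval -0.25 to 1.90) and 0.75 for Pgk1 (interval -0.33 to 1.83). Intervals of this width leave room for more than a 2-fold difference in either gene.

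**Figure D3:**
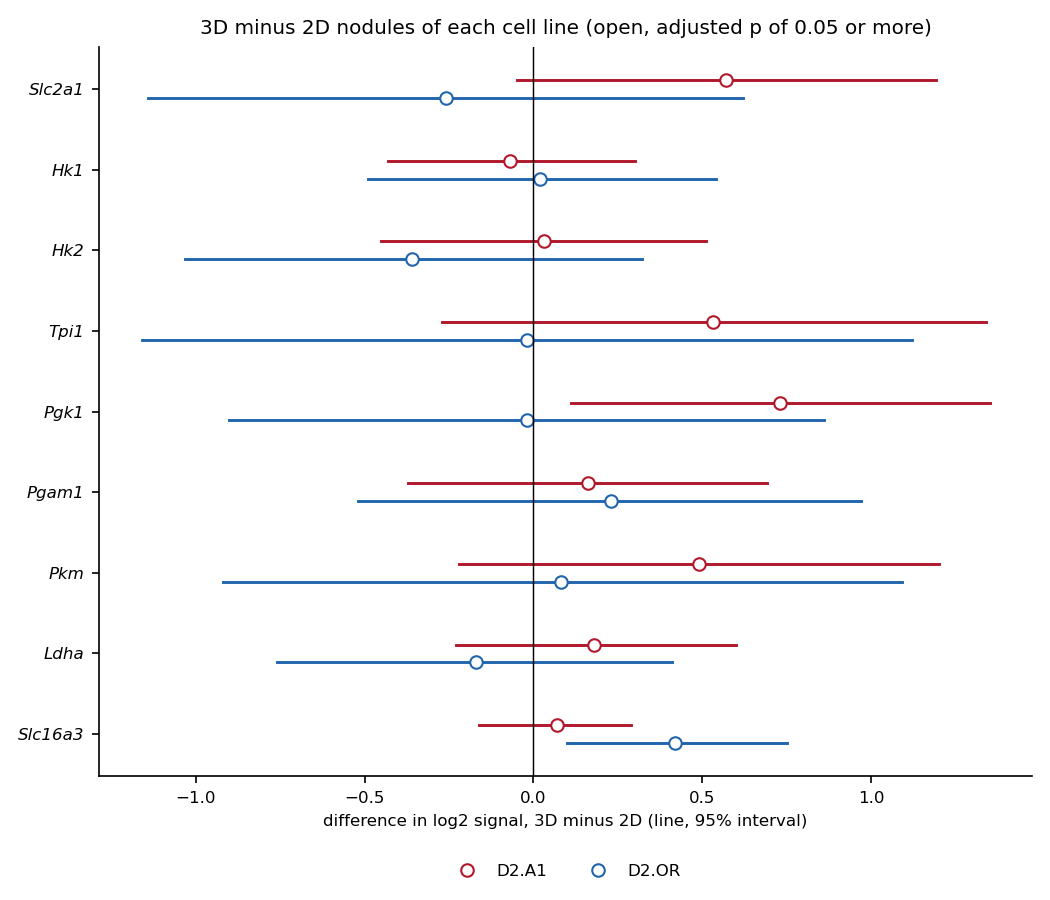
Differences in log2 signal between 3D and 2D nodules (horizontal axis) for the 9 measured genes, in D2.A1 and in D2.OR. Lines are 95% intervals of the limma fit, and no gene has an adjusted p under 0.05. The D2.OR intervals of Tpi1, -1.16 to 1.12, and Pkm, -0.92 to 1.09, are among the widest.

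Spindle and epithelial nodules of D2.A1 were compared next. The study describes spindle nodules at the pleural surface and epithelial ones inside the lung, so histology and site cannot be told apart. None of the 9 genes was called, and limma called none of the 22180 genes (0%), with an unadjusted p under 0.05 in 1 of the 9 and in 7.81% of all genes. That gene was Pgam1, with a difference of 0.60 (SE 0.24, adjusted p = 0.57). It was 5.52 and 5.65 in 3D spindle and 6.35, 5.96 and 5.06 in 2D spindle nodules, against 5.18 and 5.52 in 3D epithelial and 4.86, 5.22 and 4.39 in 2D epithelial nodules. The sides overlapped. Tpi1 differed by 0.65 (SE 0.37, adjusted p = 0.72) and Pgk1 by 0.37 (SE 0.29, adjusted p = 0.80).

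The order of the group means was similar for the enzymes that rose. For Tpi1, Pgk1 and Pkm the D2.A1 3D spindle group was highest, at 6.87 ± 0.08, 7.39 ± 0.38 and 8.89 ± 0.24 (SD, n = 2), and the 2 D2.OR groups were lowest. For Pgk1 the means then ran 6.99 ± 0.17 in D2.A1 3D epithelial (n = 2), 6.64 ± 0.30 in D2.A1 2D spindle (n = 3), 6.28 ± 0.42 in D2.A1 2D epithelial (n = 3), and lowest 5.03 ± 0.75 in D2.OR 3D (n = 3) and 5.05 ± 0.68 in D2.OR 2D nodules (n = 2). Neighbouring groups of Pgk1 overlapped except at the top and between the lines. At the top the lowest D2.A1 3D spindle nodule, at 7.12, lay just above the highest D2.A1 3D epithelial nodule, at 7.11. For Pgam1 the D2.A1 2D spindle group led, at 5.79 ± 0.66 (n = 3), and every group overlapped its neighbour. For Slc2a1 the D2.A1 3D spindle mean of 4.91 ± 0.73 (n = 2) lay above both nodules of the next group by mean, D2.A1 3D epithelial, while D2.A1 2D spindle nodule 1, at 4.54, lay between its nodules. For Hk1, Hk2 and Ldha all neighbours overlapped.

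Some genes had a second cluster. The second Pgam1 cluster (17404152) did not follow the one used (17359466). It lay between 3.70 and 4.93 in D2.A1 nodules and between 3.06 and 5.15 in D2.OR nodules, with a difference of 0.06 (SE 0.32, adjusted p = 0.96 over all clusters). The first had a difference of 0.84 (SE 0.22, adjusted p = 0.062 over all clusters). With the mean of both, Pgam1 was not called over all nodules, at 0.45 (adjusted p = 0.34), nor for D2.A1 spindle nodules, at 0.59 (adjusted p = 0.26). The second Slc2a1 cluster (17429307) lay between 1.61 and 2.26 on all arrays, about the median gene, and differed by 0.21 (SE 0.07, adjusted p = 0.13 over all clusters). With the mean of both, Slc2a1 was called over all nodules, at 0.53 (adjusted p = 0.048), and for D2.A1 spindle nodules, at 0.67 (adjusted p = 0.037).

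**Figure D4:**
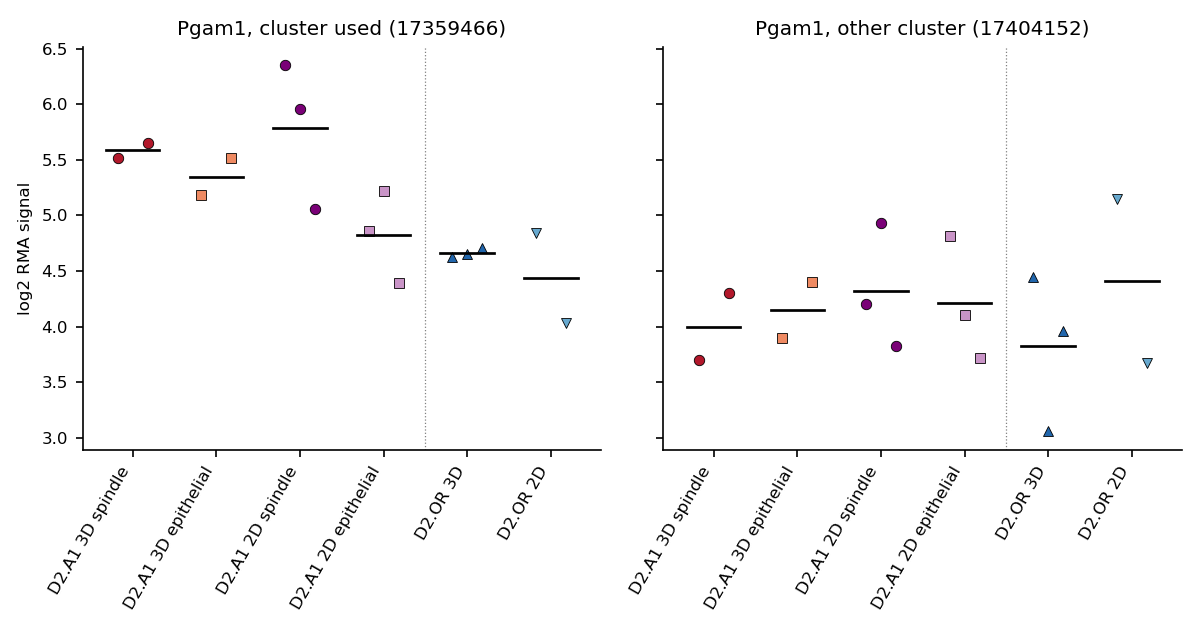
Log2 RMA signal of the 2 transcript clusters that name Pgam1 alone, in each nodule by group, on one vertical scale. Points are nodules and bars group means. In the cluster used, D2.A1 nodules reach 6.35 and D2.OR nodules 4.84. In the other cluster, D2.OR nodules reach 5.15 and D2.A1 nodules 4.93.

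Markers of some other cells moved with the line difference, and those of others did not. In D2.A1 nodules 6 of 6 measured B and plasma cell markers, 8 of 11 fat cell markers and 5 of 7 T and NK cell markers fell, against 3.67% of all genes. Of 8 markers in each list, 2 endothelial and 1 each of the alveolar type II, macrophage and fibroblast markers fell. None was called among 12 muscle, 7 alveolar type I, 5 airway and 6 neutrophil markers. The same held for 2 erythroid, 5 epithelial tumor and 5 cell division markers, where 5.19% of all genes were called in either direction. The mean of the cell division markers was 2.45 to 3.36 in D2.A1 nodules. It was 2.07 and 2.26 in D2.OR 2D and 3.07, 2.17 and 3.12 in D2.OR 3D nodules. In 2D each cell division marker was higher in every D2.A1 than in both D2.OR nodules, as for 8.91% of all genes. The epithelial tumor mean was lowest in the D2.OR 2D nodules, at 2.58 and 2.54. The mean of the B and plasma cell markers was 1.83 to 2.19 in D2.A1 nodules, about the level of the median gene, and 2.70 to 5.03 in D2.OR nodules. The mean of the T and NK cell markers was 1.81 to 2.15 in D2.A1 nodules and 2.25 to 4.91 in D2.OR nodules, and that of the fat cell markers 1.96 to 2.18 in D2.A1 nodules and 2.65 to 6.69 in D2.OR nodules. No signal is 0 on this scale, so no marker could be called absent. The muscle and airway markers were highest in the D2.OR 3D nodule numbered 2, at 4.25 and 5.55, and the fat markers in the D2.OR 2D nodule numbered 2, at 6.69.

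The D2.OR nodules with the lowest Tpi1, Pgk1 and Pkm signals were those with the most B and plasma cell marker signal within their groups. For Pgam1 this held in 2D, while in 3D nodule 1 was lowest, at 4.63, and nodule 2 had 4.65. Nodule 2 of D2.OR 3D had a marker mean of 4.02 and nodule 3 of D2.OR 2D one of 5.03, and the other D2.OR nodules had 3.06, 2.70 and 3.73. Without these nodules Pgk1 still rose in D2.A1, by 1.35 (adjusted p = 0.0014), and Pkm by 0.51 (adjusted p = 0.047). Tpi1, with 0.66 (adjusted p = 0.075), and Pgam1, with 0.63 (adjusted p = 0.18), were not called. Within 3D, Pgk1 was called at 1.77 (adjusted p = 0.0027) without D2.OR 3D nodule 2 and D2.OR 2D nodule 3, and within 2D it was not, at 0.93 (adjusted p = 0.16), where D2.OR 2D was left with 1 nodule that is assumed to vary like the other groups. With array weights, D2.OR 3D nodule 2 had the lowest weight of the 15 arrays, 0.325, against 3.11 for D2.OR 3D nodule 1, and all 4 calls of the line difference were kept. The fit without the nodules richest in B markers was chosen after seeing the data. B markers were not the only list that set D2.OR 3D nodule 2 apart. T and NK cell markers followed the B markers in D2.OR 2D, with 4.91 in nodule 3 against 3.05. In D2.OR 3D they did not: nodule 2 had the lowest mean, 2.25 against 2.78 and 2.87. That nodule also had the lowest epithelial tumor marker mean of D2.OR 3D, 2.82 against 3.98 and 4.07. Its alveolar type II (4.11 against 5.23 and 5.71) and cell division (2.17 against 3.07 and 3.12) means were lowest too. So were its macrophage (3.79 against 4.81 and 4.62) and fibroblast (4.53 against 5.55 and 6.19) means. In D2.OR 2D, nodule 3 was lower than nodule 2 in alveolar type II markers, 2.45 against 2.56. It was higher in cell division (2.26 against 2.07), macrophage (4.23 against 3.35) and fibroblast (4.05 against 4.01) markers. The part of B and plasma cells, or of other cells, in the signals of the enzyme genes was not tested.

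**Figure D5:**
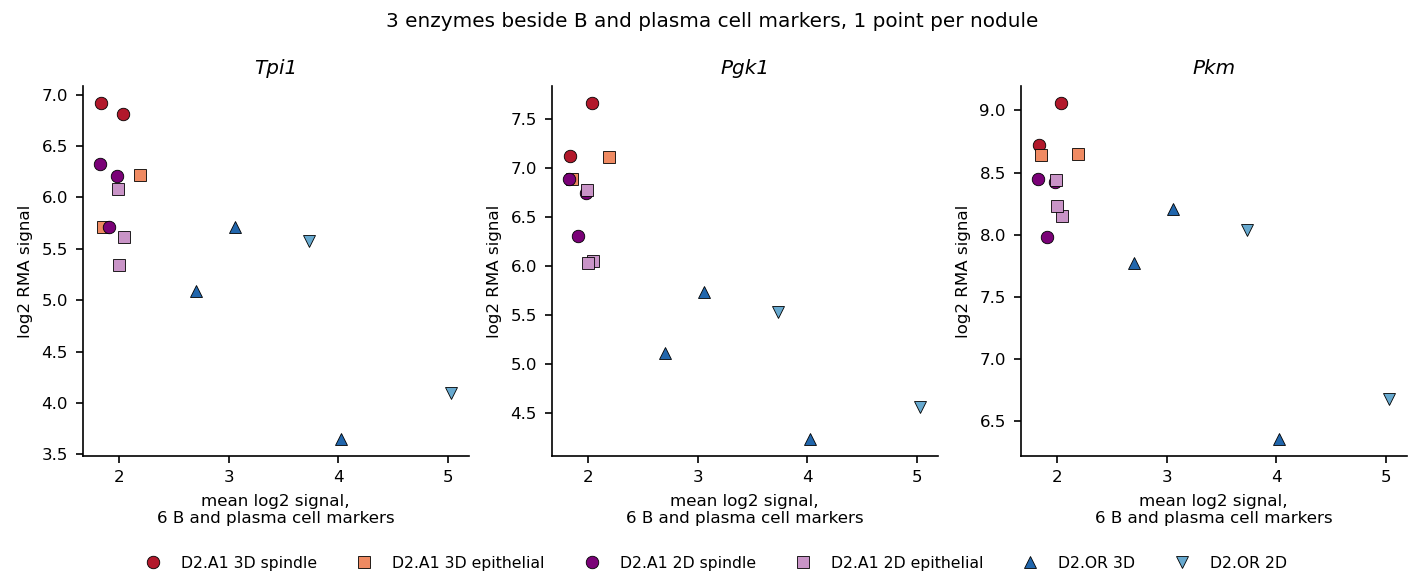
Log2 RMA signal of Tpi1, Pgk1 and Pkm (vertical axes) against the mean log2 signal of 6 B and plasma cell markers (horizontal axis), 1 point per nodule. All D2.A1 nodules lie at a marker mean of 2.19 or less. The D2.OR nodules at 5.03 and 4.02 have Tpi1 signals of 4.10 and 3.65.

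Tpi1, Pgk1 and Pkm varied together from nodule to nodule, as a description over arrays that share their normalization and tissue makeup. Pearson's r was 0.95 for Tpi1 with Pkm, 0.94 for Tpi1 with Pgk1 and 0.94 for Pgk1 with Pkm over the 15 nodules. Within the 10 D2.A1 nodules it was 0.76, 0.86 and 0.93 for the same pairs, and within the 5 D2.OR nodules 1.00, 0.99 and 0.98. Pgam1 followed less closely, at 0.73 with Tpi1 and 0.64 with Pkm over the 15 nodules. Of all other genes, those most alike to the mean of the 9 over the 15 arrays were Gapdh, the glycolytic enzyme between Tpi1 and Pgk1 (r = 0.952), Cyp51 of sterol synthesis (r = 0.882), Eif1ax of translation initiation (r = 0.879), Vdac1, a channel of the outer mitochondrial membrane (r = 0.877), and Sdc4, a cell surface proteoglycan (r = 0.871).

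The rest of the pathway was read from fixed lists. Of 17 other measured enzymes of glycolysis 1 rose and none fell in D2.A1 against D2.OR nodules, near the 5.19% of all genes called in either direction, with a median difference of -0.02 against 0.02 over all genes. The gene that rose was Gapdh, which encodes glyceraldehyde-3-phosphate dehydrogenase. It lay between 9.76 and 11.02 in D2.A1 nodules, with a median of 10.38, against 9.81 and 8.84 in D2.OR 2D and 9.62, 8.68 and 9.33 in D2.OR 3D nodules. Only D2.OR 2D nodule 2 reached the lowest D2.A1 nodule, and Gapdh rose by 1.11 (SE 0.20, adjusted p = 0.0068). The other Gapdh clusters differed by 1.13 (SE 0.21) and 0.92 (SE 0.15). Aldoa and Eno1, the common aldolase and enolase genes, had no cluster of their own. Of 14 other glucose and lactate transporters none was called, with a median of -0.08, and 2 of 14 had an unadjusted p under 0.05, against 17.9% of all genes.

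Among 11 measured regulators of glycolytic flux 1 rose and 3 fell in D2.A1 against D2.OR nodules, and among 7 genes of gluconeogenesis 1 fell, where 1.52% of all genes rose and 3.67% fell. Myc, a transcription factor that acts on glycolytic genes, lay between 5.35 and 6.54 in D2.A1 nodules and between 3.00 and 3.62 in D2.OR nodules. The lines stood far apart, and Myc rose by 2.54 (SE 0.18, adjusted p = 1.5e-05). It also rose in 2D by 2.79 (SE 0.27, adjusted p = 0.00019) and in 3D by 2.29 (SE 0.25, adjusted p = 0.0018). Hif1a, the gene of a hypoxia-inducible factor that is mainly controlled as protein, differed by -0.27 (adjusted p = 0.49).

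Pfkfb3 encodes an enzyme that makes fructose 2,6-bisphosphate, the activator of phosphofructokinase. It lay between 2.20 and 3.42 in D2.A1 nodules, against 5.81 and 5.45 in D2.OR 2D and 3.56, 3.15 and 2.83 in D2.OR 3D nodules. The D2.OR 2D nodules stood above all others, and D2.OR 3D nodules overlapped with D2.A1. Pfkfb3 fell by 1.73 (SE 0.16, adjusted p = 8.4e-05) in D2.A1 against D2.OR. The study reports the opposite direction for these arrays, with Pfkfb3 higher in metastatic than in dormant tumors. It also reports more Pfkfb3 mRNA and protein in D2.A1 than in D2.OR cell cultures, which these arrays do not measure. Among 3D nodules Pfkfb3 was not called, and none of the 11 measured regulators fell, where 0.252% of all genes did. Within D2.OR Pfkfb3 fell by 2.45 (SE 0.26, adjusted p = 0.0027) in primed against unprimed nodules, a call lost when those 5 nodules were fitted alone (adjusted p = 0.79).

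The other genes that fell act against the burning of pyruvate or toward glucose formation. Pdk4 and Pdk2 encode pyruvate dehydrogenase kinases and Pck1 encodes phosphoenolpyruvate carboxykinase. Pdk4 lay between 1.72 and 2.26 in D2.A1 nodules, against 8.44 and 4.86 in D2.OR 2D and 4.73, 4.85 and 2.30 in D2.OR 3D nodules. Pck1 lay between 1.76 and 2.19 in D2.A1 nodules, against 9.08 and 5.21 in D2.OR 2D and 5.42, 5.87 and 3.49 in D2.OR 3D nodules. Both were highest in D2.OR 2D nodule 2, where the fat cell markers were highest too, and both are strongly expressed in fat tissue. Pdk4 fell by 3.29 (SE 0.53, adjusted p = 0.0034), Pck1 by 4.05 (SE 0.53, adjusted p = 0.0010) and Pdk2 by 1.35 (SE 0.33, adjusted p = 0.035), a call that Pdk2 kept in 11 of 25 alternatives. The part of fat cells in these differences was not tested. Txnip, whose product restrains glucose uptake, lay between 3.38 and 5.48 in D2.A1 2D nodules, against 7.12 and 6.29 in D2.OR 2D nodules. It fell in D2.A1 2D against D2.OR 2D nodules by 1.99 (SE 0.42, adjusted p = 0.019), and without D2.OR 2D nodule 2 the difference was -1.57 (adjusted p = 0.16).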

How the data were processed

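RNA of 15 nodules was hybridised to the Affymetrix Mouse Gene 2.0 ST array. The authors normalized the probe signals by RMA, and the deposited table holds log2 values per transcript cluster and nodule. The log base is taken from RMA. The submitters' processing notes name RMA, Affymetrix Expression Console and Transcriptome Analysis Console, with versions and genome build not given in the sources used here. Quantile scaling removes a change shared by most genes. Of 41345 clusters, 23521 name 1 gene, 1820 several and 16004 none in the platform annotation. No column was left out and no filter was applied. The number of arrays limits the precision.

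Groups came from the sample titles. Group means of 22180 genes were fitted with limma 3.58.1 in R 4.3.3 (9 residual degrees of freedom, 3.2 prior), with the Benjamini-Hochberg adjustment taken over all genes in each comparison, for 8 comparisons. The D2.A1 comparisons share their D2.OR nodules. Named genes were the listed members, the called genes of other pathway lists (at most 4 per list and comparison, by size) and the 5 most correlated genes. Hif1a, Aldoa and Eno1 were named outside this rule. Members and lists were chosen with earlier results of these data known. The fit was tested on simulated data of independent normal noise with added shifts. Those data hold no shared mice, no differences in tissue makeup and no unequal array quality. Alternatives were all clusters, only genes above the median signal, another variance prior, array weights, only the compared groups, a replicate block, cyclic loess, the mean of a gene's clusters, a one-way analysis of variance, each array left out, and 2 chosen after seeing the data that left out D2.OR nodules.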

Additional observations from a re-analysis of the deposited data

Results flagged for a closer look

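Pfkfb3 was singled out because its priming effect differed between the lines by the test of the difference itself. The difference between 3D and 2D nodules was 0.02 (SE 0.18, adjusted p = 1) in D2.A1 and -2.45 (SE 0.26, adjusted p = 0.0027) in D2.OR, and the D2.A1 effect exceeded the D2.OR effect by 2.47 (SE 0.32, adjusted p = 0.019, limma). In D2.OR every one of the 3 primed nodules lay below both unprimed nodules, of which there were 2. Groups of this size often separate: 10.7% of all genes did so in the opposite direction, with the primed nodules higher. The share of all genes in the direction of Pfkfb3 is not given here, so the separation by itself carries no weight. The call was kept in 21 of 24 alternatives, with differences between 2.25 and 2.70, and was lost without D2.A1 3D spindle nodule 2 (adjusted p = 0.057), D2.A1 2D epithelial nodule 1 (adjusted p = 0.054) or D2.OR 3D nodule 3 (adjusted p = 0.055). No listed glycolytic enzyme or transporter was singled out in this way, and no title group had enough nodules for a test of outlying samples.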

How the results depend on the processing

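No direction reversed for the genes named as called, in any alternative. The count of called genes of the 9 moved in several. Over all nodules it was 4, with 1 when all transcript clusters were tested, 2 without the D2.OR nodule of each culture with the most B and plasma cell marker signal, and 1 to 5 when single arrays were left out. It was 1 or 2 without any one of 10 arrays, 8 of D2.A1 and 2 of D2.OR. In 2D it was 1, with 0 for all clusters, for a prior with trend, for array weights and without the B marker nodules, 3 without both D2.OR nodules numbered 2, and 0 to 1 without single arrays. In 3D it was 1, with 0 when fitted on those groups alone, 2 with array weights (Pgk1 rose, Slc16a3 fell by 0.53), 4 by the one-way analysis of variance with a 2-fold and unadjusted threshold (Tpi1, Pgk1, Pkm and Slc2a1, against 1.04% of all genes), 3 without the nodules numbered 2, 3 without the B marker nodules, and 0 to 1 without single arrays. For D2.A1 spindle nodules it was 3, with 5 above the median signal, 5 with cyclic loess, 1 on those groups alone and 1 to 4 without single arrays. In D2.OR 3D against 2D it was 0, with 1 without the nodules numbered 2 and 0 to 0 without single arrays. The 3 other comparisons stayed at 0. Leaving out either D2.OR 2D nodule leaves 1, which is assumed to vary like the other groups. The cause of these changes was not tested.

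A replicate block by the number in the title gave 2 over all nodules, 0 in 2D, 1 in 3D and 2 for spindle nodules. The numbers share no stated origin: same-numbered nodules of different groups had a mean correlation of deviations of -0.019 over 31 pairs, and 6 of 15 arrays fitted their own number best.

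The count over all genes also moved, over all nodules between 433 and 2241 around 1152, in 2D between 670 and 1653 around 931, in 3D between 38 and 952 around 99, for spindle nodules between 379 and 2261 around 933, in D2.OR 3D against 2D between 0 and 1048 around 61, and for the priming difference between 3 and 850 around 21. The 2D and 3D calls rest on 2 or 3 D2.OR nodules, and weak signals limit Hk2, Ldha and Slc16a3.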
